A study of Mus musculus with 4 samples.

Results

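The Ikaros family consists of the 5 zinc finger transcription factor genes Ikzf1 (Ikaros), Ikzf2 (Helios), Ikzf3 (Aiolos), Ikzf4 (Eos) and Ikzf5 (Pegasus). All 5 of 5 were among the 32285 genes counted in 4 single-cell RNA-seq libraries of mouse thymocytes, and they were taken as a family, whatever their levels. The study concerns PD-1, the inhibitory receptor encoded by Pdcd1, and the thymic development of regulatory T cells (Treg cells, which carry the transcription factor Foxp3). Thymi came from C57BL/6J mice aged 3 weeks that were either WT or PD-1 knockout, those of 4 animals were pooled, and cells bearing CD8 were depleted. Live cells were then sorted as CD4+ HSA+ (immature) and CD73− and as either CD25− or CD25+, so each combination of genotype and gate had 1 library. The deleted part of Pdcd1 is not given in the labels, and the protocol lists a CD74 stain in place of CD73.

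Cells were placed in 4 classes by genes that are not members of the family. Cells with Cd4 at 0 and at least 1 unique molecular identifier (UMI, a mark of 1 captured transcript) of Ptcra, the pre-TCR alpha chain of precursors that have not yet rearranged Tra, formed the pre-TCR class. Of the rest, cells with at least 1 Foxp3 UMI formed the Foxp3 class. Cells with Foxp3 at 0 and at least 2 summed UMIs of Nr4a1, Egr2 and Tnfrsf9, genes induced by T cell receptor signalling, formed the signalled class. Remaining cells with at least 1 UMI of Cd4 and Trac summed formed the other Cd4/Trac class, and cells in none of these were only counted.

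Ikaros family proteins bind DNA through an N-terminal group of zinc fingers and pair with themselves and with each other through a C-terminal pair of fingers. They recruit the NuRD, Sin3 and CtBP corepressors, and in thymocytes Ikaros is known for restraining Notch target genes at the pre-TCR checkpoint. Helios is known from Treg cells and from thymocytes under strong receptor signalling, Eos as a partner of Foxp3 in gene silencing, Aiolos from later lymphocyte maturation, and Pegasus is the most divergent member.

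After filtering, the CD25− libraries held 2985 WT and 1716 knockout-labelled cells with medians of 4497 and 6299 UMIs, and the CD25+ libraries 7649 and 9236 cells with medians of 5808 and 5961.5 UMIs. The Foxp3, signalled, other and pre-TCR classes held 51, 309, 2001 and 2 cells in the CD25− WT library and 59, 283, 1171 and 0 in its knockout-labelled counterpart. They held 645, 567, 573 and 4825 cells in the CD25+ WT library and 331, 522, 388 and 6644 in the knockout-labelled one. The CD25+ gate was thus mostly pre-TCR class, at 63.1% and 71.9% of cells, although the sort was for CD4+ cells. Over whole libraries Pdcd1 was not lower for the knockout label, at 27.2 against 18.3 CPM (UMIs of a gene scaled to a fixed total per library or class) in the CD25− and 18.9 against 16.0 CPM in the CD25+ gate, so the counts do not check that label. Between 44 and 154 cells of a library carried a barcode that another library also held, and leaving them out moved no ratio of a family member beyond its counting interval. B cell markers summed to at most 13.8 CPM in the Foxp3 and signalled classes, NK and innate markers to at most 113 with Ncr1 at 0 in all of them, myeloid and dendritic markers to 81.7 to 249.6 CPM, and thymic epithelial markers to at most 30.02. In the CD25+ pre-TCR class the same lists summed to 88.0 and 82.1, 172 and 125, 205 and 167, and 192 and 226 CPM (WT first). In the CD25+ other class they summed to 30.4 and 37.3, 41.1 and 53.7, 264 and 270, and 44.2 and 95.4 CPM.

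With 1 library per group there was no replicate and no test, so each comparison is of libraries and not of genotypes. Levels are CPM of the summed UMIs of a class, with 95% exact Poisson intervals. For a ratio the interval is the exact conditional binomial one, and for a share of cells the exact Clopper-Pearson one. All of these cover counting error only. A ratio was counted as past the fold when it was at least 1.5 in either direction with at least 20 CPM in either group. To compare shares of cells with a UMI, cells were thinned to 1500 UMIs. Ratios of CPM are within a member, between classes, bins or libraries, and none was taken between members. CPM was not scaled to gene length, since the libraries count 5′ ends.

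In GENCODE M21 on GRCm38 all members are protein-coding genes: Ikzf1 at chr11:11685003-11772926 on the plus strand, Ikzf2 at chr1:69531214-69687245, Ikzf3 at chr11:98464902-98546031, Ikzf4 at chr10:128630843-128645991 and Ikzf5 at chr7:131388652-131410521, all 4 on the minus strand. Ikzf5 overlaps Pstk on the opposite strand, and Ikzf2 overlaps the antisense gene Gm29114 and a pair of sense intronic genes. The sources used here do not state whether counting used strand, so reads of such partners cannot be told apart from those of the member.

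Ikzf2 had a wide spread between classes, with the signalled and Foxp3 classes high and the other Cd4/Trac class low in every library. In the CD25+ WT library it stood at 822 CPM (interval 790 to 855) in the Foxp3 class, 993 in the signalled, 195 in the other and 106 in the pre-TCR class. In the CD25+ knockout-labelled library the same classes stood at 554 (518 to 592), 942, 171 and 109.6 CPM. The signalled class was the highest in both CD25+ libraries, and the pre-TCR class the lowest. In the CD25− libraries the Foxp3, signalled and other classes stood at 363, 255 and 41.3 CPM for WT and at 374, 320.2 and 40.0 CPM for the knockout label. Here the order of the first pair was turned, with the Foxp3 class above the signalled one, but for the knockout label the interval of their ratio (0.958 to 1.41) included 1. With a minimum of 2 Foxp3 UMIs these CD25− ratios were 2.70 and 2.53, from 16 and 15 cells.

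**Figure D1:**
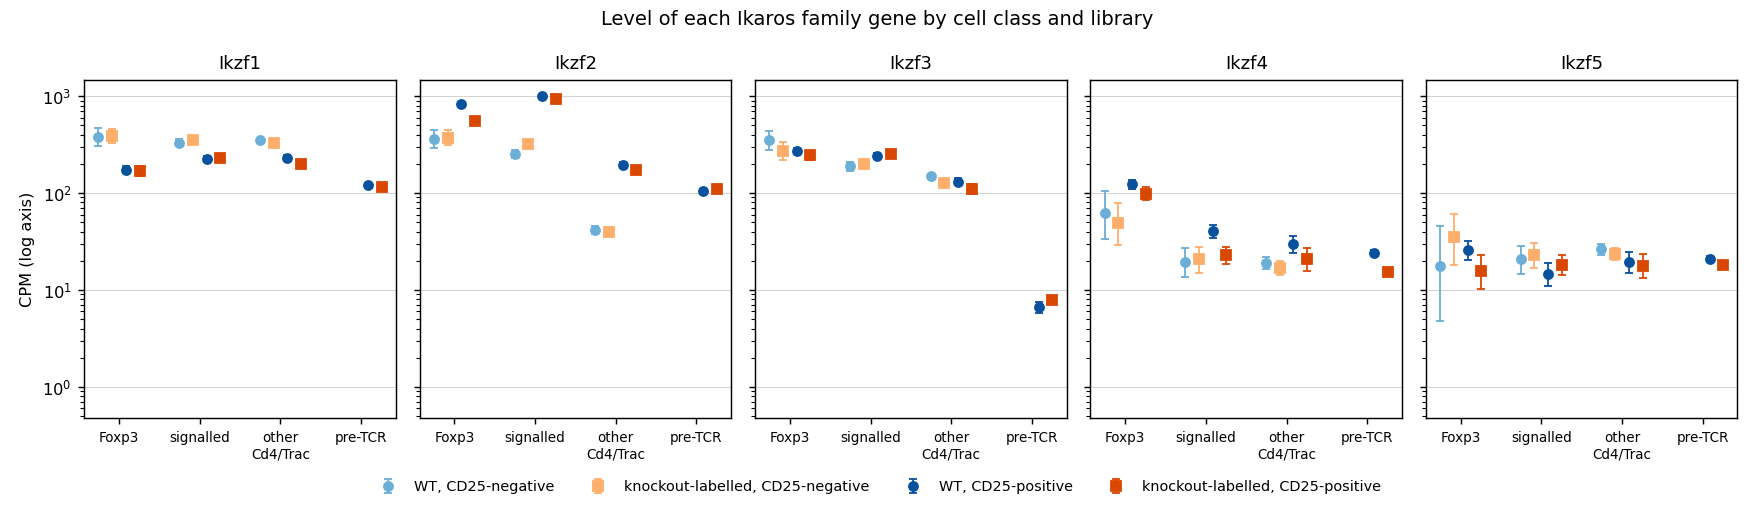
Level of each Ikaros family gene (CPM, log axis) in the 4 cell classes, in circles for WT and squares for knockout-labelled libraries and in light colours for the CD25− and dark colours for the CD25+ gate; bars are exact 95% Poisson intervals, which cover counting error only. Ikzf2 is highest in the CD25+ signalled class (993 and 942 CPM), Ikzf3 falls to 6.66 and 7.90 CPM in the pre-TCR class, and Ikzf4 is highest in the Foxp3 class of each library.

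The ratio of the Foxp3 class to the other Cd4/Trac class for Ikzf2 was 8.80 (6.86 to 11.2) in the CD25− WT, 9.35 (7.55 to 11.5) in the CD25− knockout-labelled, 4.21 (3.87 to 4.59) in the CD25+ WT and 3.24 (2.89 to 3.63) in the CD25+ knockout-labelled library. The CD25− values rose to 16.7 and 20.2 with a minimum of 2 Foxp3 UMIs, which left those 16 and 15 cells. Of the family, Ikzf2, Ikzf3 and Ikzf4 passed the fold in this comparison in all 4 libraries, all of them higher. Of all genes tested 26.8%, 23.6%, 19% and 31.5% passed it either way, and 12.4%, 11.2%, 7.32% and 10.6% were higher. The signalled class exceeded the other class 6.19-fold (5.41 to 7.08) and 8.01-fold (7.004 to 9.18) in the CD25− libraries, where 7.87% and 9.73% of genes passed the fold and 3.55% and 4.81% were higher, and 5.09-fold and 5.51-fold in the CD25+ libraries, where 22.5% and 23.2% passed and 9.92% and 8.27% were higher (WT first). Ikzf2 was the single member past the fold here in the CD25− WT library, and Ikzf2 and Ikzf3 were in the rest. With classes and levels both taken from thinned cells, the CD25+ ratios of the Foxp3 class fell to 1.67 and 1.08 and those of the signalled class to 2.72 and 2.88. By construction, thinning can take cells whose Foxp3 or response UMIs are lost out of their class. Of these, only cells that keep a Cd4 or Trac UMI can enter the other class. The part of such moves in the lower ratios was not tested. The CD25+ other class also held Ptcra at 183 CPM (WT) and 297 CPM (knockout label) and Rag1 at 128 and 184 CPM, against at most 0.889 CPM of Ptcra in the CD25− other class. The part of those cells in the ratios was not tested beyond requiring Ptcra and Trdc at 0, which gave 2.64 for the Foxp3 class of the CD25+ knockout-labelled library.

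The classes also differed in how Ikzf2 UMIs were spread over cells. In the CD25+ pre-TCR class 44.2% (WT) and 45.7% (knockout label) of cells held 1 to 4 Ikzf2 UMIs, and only 1.33% and 1.25% held 5 or more. In the CD25− signalled class 68.9% and 59.7% of cells held none, yet 12.3% and 17.3% held 5 or more, and those few cells carried 75.3% and 79.8% of all Ikzf2 UMIs of the class. In the CD25+ signalled class most cells were high, with 5 or more UMIs in 57.5% and 61.3% of cells and a median of 7 and 8 UMIs among positive cells. The pre-TCR class thus had low Ikzf2 spread over many cells, the CD25− signalled class high Ikzf2 in a minority, and the CD25+ signalled class high Ikzf2 in a majority. In the CD25+ Foxp3 class 5 or more UMIs were found in 30.9% (27.3 to 34.6) of WT and 19.6% (15.5 to 24.3) of knockout-labelled cells. After thinning, Ikzf2 was detected in 57.4% and 44.0% of CD25+ Foxp3 cells, 66.1% and 68.0% of CD25+ signalled cells and 15.6% and 15.1% of pre-TCR cells. The lowest thinned shares, 3.95% and 4.06%, were in the CD25− other class, with 8.30% and 9.65% unthinned at median depths of 5131 and 6635 UMIs.

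**Figure D2:**
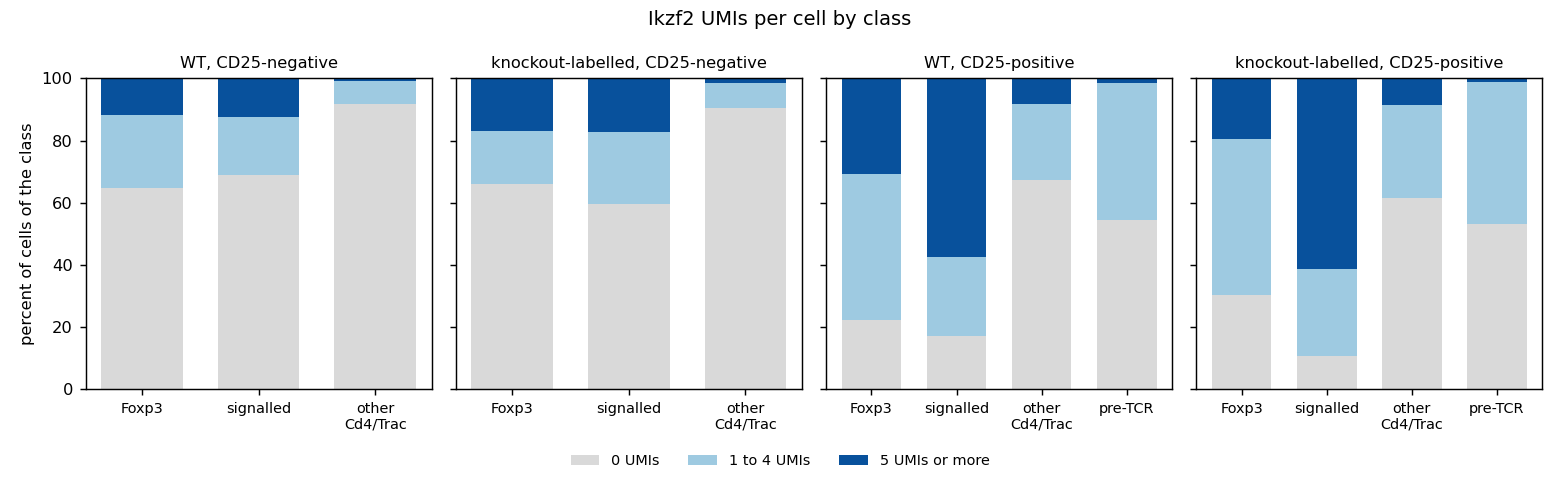
Share of cells (percent of the class) with 0, 1 to 4, or 5 and more Ikzf2 UMIs, by class, in each of the 4 libraries, without thinning. The darkest part covers 57.5% and 61.3% of CD25+ signalled cells (WT, then knockout-labelled) but 1.33% and 1.25% of pre-TCR cells, which mostly hold 0 to 4 UMIs.

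Within cells lacking Foxp3 UMIs, Ikzf2 was graded by the number of receptor response UMIs. From 0 to 1, 2 to 3 and 4 or more summed Nr4a1, Egr2 and Tnfrsf9 UMIs, Ikzf2 went from 161 to 341, 762 and 1117 CPM in the CD25+ WT library and from 147 to 277, 680 and 1121 CPM in the knockout-labelled one. In the CD25− libraries the same steps were 30.9, 114, 208 and 231 CPM for WT and 28.4, 101, 183 and 352 CPM for the knockout label. Every step was upward in all 4 libraries, from a first bin of 322 to 1767 cells to a last bin of 148 to 354 cells, and the last bin was deeper than the first by median UMIs in each. The last CD25− WT step, from 208 to 231 CPM, was small, came from 155 and 219 UMIs and had overlapping Poisson intervals. At each step the CD25+ gate stood above the CD25− gate with the same genotype label.

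Inside the Foxp3 class Ikzf2 was also highest with 2 or more response UMIs in each library, but the steps were not all upward. With 0, 1 and 2 or more response UMIs, CD25+ Foxp3 cells held Ikzf2 at 550.1, 926 and 1181 CPM for WT and at 394, 419 and 821 CPM for the knockout label. In the CD25− gate the Foxp3 cells with 2 or more response UMIs were only 6 WT and 10 knockout-labelled cells, yet they held Ikzf2 at 1405 (1033 to 1869) and 1252 (1005 to 1540.1) CPM, against 189 and 79.2 CPM in the 41 and 39 cells with none. A few cells therefore set the CD25− Foxp3 level of Ikzf2. With 1 response UMI the CD25− level was 132 CPM for WT, below that with none, from 3 UMIs in 4 cells. For the knockout label it was 474 CPM, from 21 UMIs in 10 cells. Over Foxp3 UMIs Ikzf2 differed by gate. With 1, 2 and 3 or more Foxp3 UMIs the CD25+ levels were 800.1, 852 and 823 CPM for WT and 495, 562 and 599 CPM for the knockout label. In the CD25− gate the ratio of cells with 3 or more Foxp3 UMIs to cells with 1 was 2.26 (1.23 to 4.03) for WT and 4.02 (2.72 to 5.91) for the knockout label, from 8 and 10 cells in the higher bin, against 1.03 and 1.21 in the CD25+ gate. As background for Foxp3 detection, pre-TCR cells, which should lack it, had a Foxp3 UMI in 0.705% (WT) and 0.873% of cells at median depths of 6078 and 6005.5 UMIs.

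**Figure D3:**
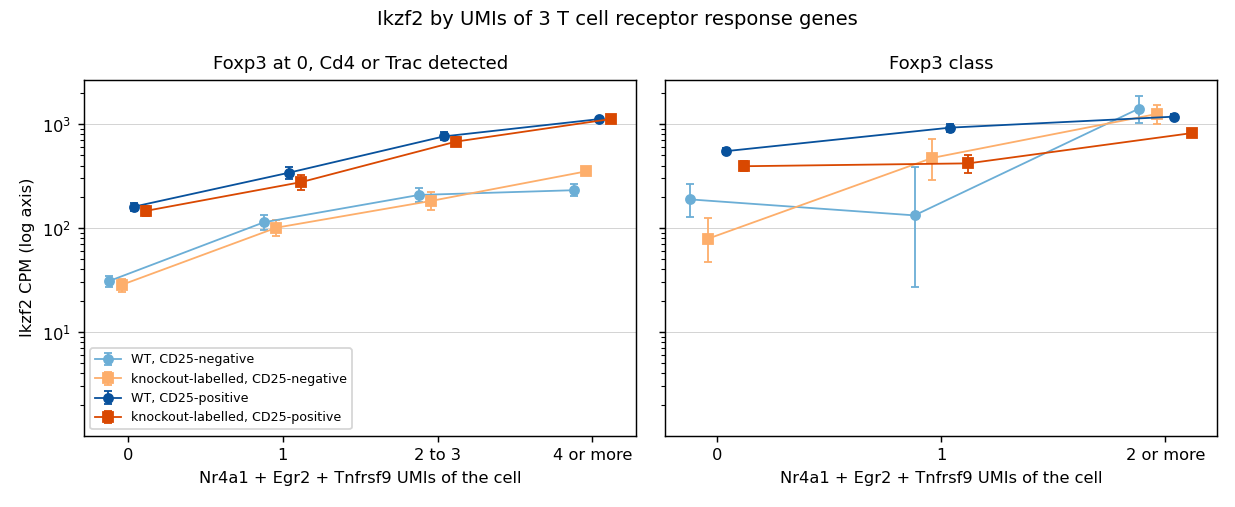
Ikzf2 level (CPM, log axis) by the summed Nr4a1, Egr2 and Tnfrsf9 UMIs of a cell, in cells with Foxp3 at 0 and Cd4 or Trac detected (left) and in the Foxp3 class (right); bars are exact 95% Poisson intervals. On the left all 4 libraries rise at each step, to 1117 and 1121 CPM in the CD25+ gate, and on the right the CD25− points with 2 or more UMIs rest on 6 and 10 cells.

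Ikzf4, whose protein Eos partners with Foxp3, was higher in the Foxp3 class than in the signalled class of every library. Its level in the Foxp3, signalled and other classes was 123 (111 to 136), 40.6 and 29.5 CPM in the CD25+ WT library and 98.6 (83.8 to 115), 22.8 and 20.9 CPM in the CD25+ knockout-labelled one. In the CD25− libraries these were 62.0 (33.9 to 104), 19.5 and 19.0 CPM for WT, and 49.6 (28.9 to 79.4), 20.7 and 16.99 CPM for the knockout label. The Foxp3 class was the highest in all 4 libraries. The signalled to other ratio was 1.03 for WT and 1.22 for the knockout label in the CD25− gate, and 1.37 and 1.09 in the CD25+ gate. For CD25+ WT it stayed above 1 in all 14 alternatives (1.10 to 1.51). In the remaining libraries the alternatives lay on both sides of 1. The ratio of the Foxp3 to the signalled class was 3.18, 2.40, 3.03 and 4.33 (CD25− WT, CD25− knockout label, CD25+ WT, CD25+ knockout label), with each interval above 1 and every value above 1 in all 14 alternatives, while 35.9%, 34.6%, 32.4% and 39.9% of genes were past the fold either way. For Ikzf2 the same ratios were 1.42, 1.17, 0.828 and 0.588, so in the CD25+ gate Ikzf2 was lower in the Foxp3 class where Ikzf4 was higher.

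Over response UMIs Ikzf4 had a smaller span than Ikzf2. In CD25+ WT cells without Foxp3 it stood at 28.5, 33.8, 58.3 and 41.2 CPM over the 4 bins, and in the knockout-labelled library at 20.6, 21.9, 20.7 and 25.4 CPM. There the ratio of the last bin (4 or more response UMIs) to the first (0) was 1.44 (1.07 to 1.95) and 1.23 (0.823 to 1.85). For Ikzf2 it was 6.95 and 7.64. In the CD25− gate the bins of Ikzf4 were 18.4, 22.9, 21.5 and 17.97 CPM for WT and 18.1, 10.95, 16.9 and 22.8 CPM for the knockout label. Inside the CD25+ Foxp3 class it was 132, 124 and 108 CPM for WT and 103, 103 and 91.1 CPM for the knockout label, from 0 to 2 or more response UMIs. In the CD25− knockout-labelled Foxp3 class the 10 cells with 2 or more held 3.19-fold (1.04 to 9.76) more Ikzf4 than the 39 cells with none, from 8 UMIs on each side, and for WT the ratio was 1.01 (0.108 to 4.76). After thinning, Ikzf4 was detected in 18.9% and 14.9% of CD25+ Foxp3 cells and in 5.77% and 3.88% of CD25+ signalled cells (WT first). The CD25− Foxp3 levels rest on 14 and 17 UMIs, and the ratio to the signalled class reached 5.08 for WT with thinned cells and 5.59 for the knockout label with a minimum of 2 Foxp3 UMIs.

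Ikzf3, which encodes Aiolos, was at its lowest in the pre-TCR class. Its pre-TCR level was 6.66 CPM (5.83 to 7.57) in the WT and 7.90 CPM (7.13 to 8.72) in the knockout-labelled CD25+ library, against 131 and 109.9 CPM in the other class, 243 and 253 CPM in the signalled and 272 and 244 CPM in the Foxp3 class. The pre-TCR level was 19.7-fold and 13.9-fold below the other class, a comparison in which Ikzf1, Ikzf2 and Ikzf3 were the members past the fold, all lower. Of all genes 29.6% and 17.1% passed it either way and 13.3% and 9.24% were lower. With thinned cells the pre-TCR to other ratio was 0.0259 for WT and 0.0205 for the knockout label, and the direction held in all 14 alternatives. After thinning, 0.606% and 1.02% of pre-TCR cells had an Ikzf3 UMI (3.27% and 4.02% unthinned), the lowest share of any member over the 14 class and library groups of at least 50 cells, against 19.96% and 17.5% of CD25+ other cells. In the CD25− libraries the Foxp3, signalled and other classes held Ikzf3 at 354, 189 and 148 CPM for WT and at 271, 199 and 126 CPM for the knockout label. The Foxp3 class was above the other class by 2.39-, 2.15-, 2.07- and 2.22-fold (CD25− WT, CD25− knockout label, CD25+ WT, CD25+ knockout label), and the CD25+ values fell to 1.34 and 1.04 with thinned cells. In the CD25+ gate Ikzf3 rose with response UMIs, from 127 to 281 CPM between the lowest and highest bins for WT and from 95.8 to 286 for the knockout label. In the CD25− gate the bins ran 144, 180.3, 198 and 161 CPM for WT and 118, 169.8, 191 and 192 CPM for the knockout label, a smaller span.

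Ikzf1, the founding member, had a smaller span between classes than Ikzf2, Ikzf3 and Ikzf4 and divided the libraries by gate. In the Foxp3, signalled and other classes it stood at 381, 330.2 and 349 CPM in the CD25− WT library and at 391, 349.8 and 329.9 CPM in the CD25− knockout-labelled one. In the CD25+ libraries the same classes stood at 175, 226 and 231 CPM for WT and at 169.6, 229 and 200.5 CPM for the knockout label, and the pre-TCR class at 120.4 and 117 CPM. Every CD25− class lay above every CD25+ class. The CD25+ to CD25− ratio was 0.458, 0.685 and 0.663 for WT and 0.434, 0.655 and 0.608 for the knockout label over the same 3 classes. Ribosomal RNA-like reads of Gm42418 also differed by gate, at 26866 to 38141 CPM in these CD25− WT classes, 15995 to 19297 in the knockout-labelled ones and 4792 to 7547 in all CD25+ classes, and their part in the Ikzf1 difference was not tested. Scaling to a total without mitochondrial, ribosomal protein and receptor segment genes, which does not remove Gm42418, left all ratios of the family within their intervals. Over response UMIs Ikzf1 stood at 343, 394, 367 and 287 CPM in the CD25− WT bins and at 224, 261, 227 and 219 CPM in the CD25+ WT bins. The ratio of the last bin (4 or more) to the first (0) was 0.838 (0.738 to 0.949) and 0.978 there. For the knockout label it was 1.10 (1.003 to 1.22) and 1.08.

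Between gates Ikzf2 went the other way from Ikzf1, as did Ikzf4 for WT and less clearly for the knockout label. The CD25+ to CD25− ratio of Ikzf2 was 2.26, 3.89 and 4.73 for WT and 1.48, 2.94 and 4.28 for the knockout label in the Foxp3, signalled and other classes. The Foxp3 ratios moved most, to 1.21 and 0.728 with a minimum of 2 Foxp3 UMIs and to 1.31 and 0.550 with thinned cells, so the direction for the knockout label rests on the few CD25− cells. In those comparisons 33.9%, 23.9% and 14.6% of genes passed the fold for WT and 32.5%, 30.3% and 26.2% for the knockout label. For Ikzf4 the ratios were 1.98, 2.08 and 1.56 for WT and 1.99, 1.10 and 1.23 for the knockout label, and with a minimum of 2 Foxp3 UMIs the knockout-labelled Foxp3 ratio was 0.942. The knockout-labelled Ikzf4 intervals of the gates overlapped in the signalled class, at 18.4 to 27.9 (CD25+) and 15.0 to 27.7 CPM (CD25−). They did so in the other class too, at 15.8 to 27.1 and 14.3 to 20.1 CPM. Ikzf3 lay between 0.766 and 1.29 in all 6 comparisons. Of the knockout-labelled other class ratios, that of Ikzf4 was 1.87 without cycling cells and that of Ikzf3, 0.870 at first, was 1.31 with Ptcra and Trdc at 0. CD25 marks cells that have moved towards Treg commitment and also early precursors, and the classes of both gates were cut by the same rule, but the CD25+ other class held the Ptcra and Rag1 noted above.

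Ikzf5, the most divergent member, was low and flat. Its levels lay between 14.5 CPM (CD25+ WT signalled class, 58 UMIs) and 35.0 CPM (CD25− knockout-labelled Foxp3 class, 12 UMIs), a 2.41-fold span over those 14 groups. The corresponding span was 3.35-fold for Ikzf1, 8.09-fold for Ikzf4, 24.8-fold for Ikzf2 and 53.2-fold for Ikzf3. Pstk, on the opposite strand, had 347 to 2425 UMIs per library. The pre-TCR class, with 728 and 879 Ikzf5 UMIs, gave its most precise values, 20.8 (19.3 to 22.4) CPM for WT and 17.9 (16.7 to 19.1) CPM for the knockout label.

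Cycling cells, those with at least 1 UMI of the proliferation genes Mki67 and Top2a, held less Ikzf2, Ikzf3 and Ikzf4 than other cells of their class in the CD25+ gate, apart from Ikzf3 in the pre-TCR class. In the CD25+ signalled class Ikzf2 was 545 CPM in cycling and 1105 CPM in non-cycling WT cells, and 495 and 1156 CPM for the knockout label. Ikzf3 was 163 against 263 CPM and 136 against 309 CPM, and Ikzf4 was 22.5 against 45.1 CPM and 9.74 against 29.0 CPM in the same cells. The Foxp3 class showed the same direction for Ikzf2 (518 against 859 CPM for WT, 424 against 586 for the knockout label), Ikzf3 (117 against 291, 114 against 277) and Ikzf4 (50.9 against 132, 37.9 against 114), although only 34 and 27 of its cells were cycling. Ikzf1 differed little, at 261 against 218 and 249.5 against 219 CPM in the signalled class, where cycling cells were slightly higher. In the pre-TCR class Ikzf3 had the opposite direction, with 8.76 CPM in cycling and 5.34 in non-cycling WT cells (ratio 1.64, 1.26 to 2.14) and 9.02 and 6.77 CPM for the knockout label. Cycling CD25+ signalled cells were deeper, with medians of 9956.5 and 12024.5 UMIs against 6097 and 6234 in non-cycling cells, and the part of depth in these ratios was not tested.

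Maturation separated Ikzf2 from Ikzf4 in the other class of the CD25− gate. Immature cells were those with Ccr9, a receptor of early thymocytes, and no S1pr1 or Klf2, and mature cells those with at least 2 UMIs of S1pr1 and Klf2, which serve thymic exit, and no Ccr9. In the CD25− libraries Ikzf2 was 54.1 CPM in immature and 23.0 CPM in mature WT cells, and 40.1 and 22.7 CPM for the knockout label. Ikzf4 went the other way, from 9.32 to 21.7 CPM for WT and from 8.96 to 19.1 CPM for the knockout label, and in the CD25+ libraries from 18.5 to 41.3 and from 16.5 to 42.7 CPM. The mature to immature ratio of Ikzf4 was above 1 with its interval in all 4 libraries, from 2.13 (1.25 to 3.85) to 2.59 (1.17 to 6.27). Ikzf2 did not fall with maturity in the CD25+ gate, at 151 and 152 CPM for WT and at 93.4 and 235 CPM for the knockout label. Ikzf3 was 1.24- to 1.74-fold higher in mature cells. Ikzf1 was 1.33-fold (1.10 to 1.62) and 1.35-fold (1.05 to 1.74) higher in mature cells of the CD25+ gate (WT first). In the CD25− gate its ratio was 1.05 (0.964 to 1.15) and 1.10 (0.994 to 1.21), and both intervals included 1.

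**Figure D4:**
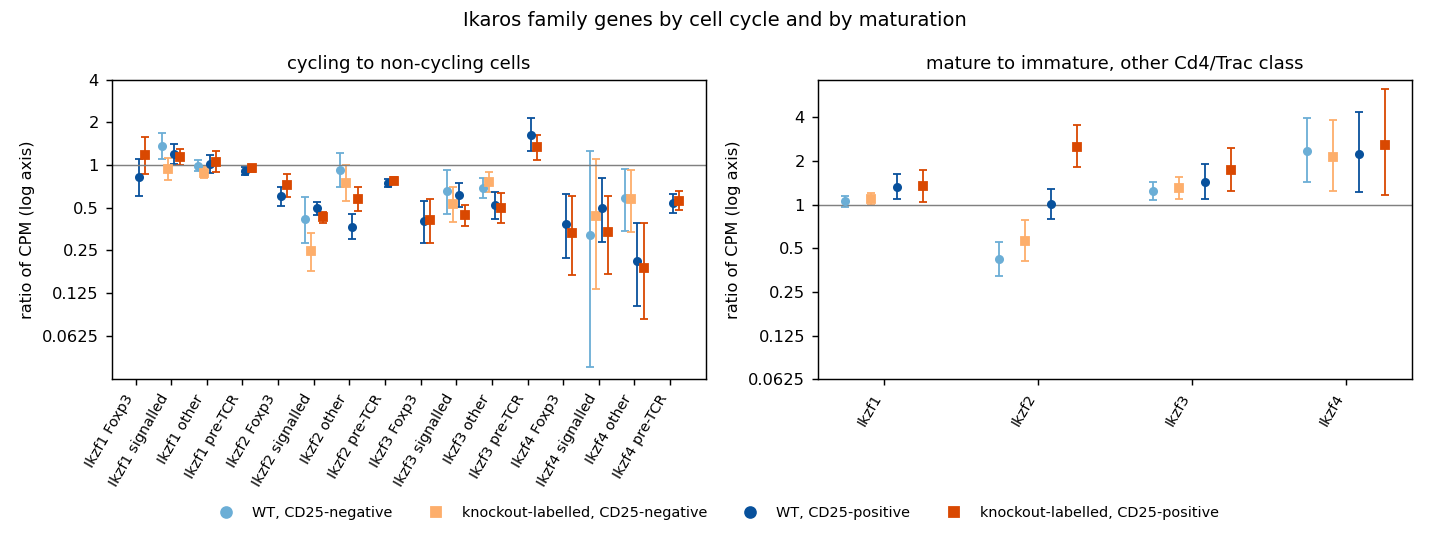
Ratio of CPM (log axis) between cycling and non-cycling cells of a class (left) and between mature and immature cells of the other Cd4/Trac class (right) for Ikzf1 to Ikzf4, with exact conditional 95% intervals and only where both sides held at least 20 cells. On the left the Ikzf2 and Ikzf4 points lie below 1 and the Ikzf3 pre-TCR points above it (1.64 and 1.33), and on the right Ikzf4 lies above 1 in all 4 libraries.

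Ikzf2 and Ikzf3 tended to be detected in the same cells at equal depth. Among CD25− signalled cells thinned to 1500 UMIs, Ikzf2 was found in 36.5% (25.6 to 48.5) of WT cells with an Ikzf3 UMI and in 14.1% (9.78 to 19.4) of those without, and in 38.4% and 19.6% for the knockout label. In the CD25+ signalled class the shares were 75.7% against 61.2% for WT and 73.9% against 65.1% for the knockout label, the second with overlapping intervals. In CD25+ WT Foxp3 cells Ikzf2 was found in 58.4% of cells with and 56.9% of cells without Ikzf3. Ikzf1 showed no such partition of Ikzf2 in the CD25− WT signalled class, at 19.5% with and 19.9% without an Ikzf1 UMI. At this depth no member was detected in 66.0% and 67.5% of pre-TCR cells and in 18.2% and 16.5% of CD25+ signalled cells.

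The comparison that the series is built on sets knockout-labelled against WT libraries of the same gate, and the members differed in how far the libraries lay apart. Ikzf1 had ratios between 0.866 and 1.06 in all 7 class comparisons, and Ikzf3 between 0.766 and 1.19. The members past the fold were Ikzf5 alone in the CD25− Foxp3 class (37.8% of genes passed) and in the CD25+ Foxp3 class (7.38%), and Ikzf4 alone in the CD25+ signalled class (6.28%) and the pre-TCR class (4.04%). The members past the fold in the CD25+ gate were all lower, as were 3.65%, 3.09% and 1.74% of genes in the Foxp3, signalled and pre-TCR classes. No member passed it in the CD25− signalled (6.7%), CD25− other (3.09%) and CD25+ other (9.62%) classes. The Ikzf5 values rest on few UMIs: 12 against 4 in the CD25− Foxp3 class, with a ratio of 1.98 (0.599 to 8.41), and 25 against 78 in the CD25+ one, with 0.612 (0.374 to 0.971). Both Ikzf5 ratios changed direction with thinned cells, to 0.5 and 1.25, and the first was 7.64 with stricter cell filters, which left 39 WT cells.

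Ikzf2 in the CD25+ Foxp3 class was just under the fold. Its 554 CPM in 331 knockout-labelled cells against 822 CPM in 645 WT cells gave a ratio of 0.674 (0.624 to 0.728), or 1.48-fold lower. It was below 1 within cells of 1, 2 and 3 or more Foxp3 UMIs (0.618, 0.660 and 0.727) and within cells of 0, 1 and 2 or more response UMIs (0.716, 0.453 and 0.696). Over 14 alternatives it ranged from 0.584, with the classes assigned in the listed order, to 0.708, with a minimum of 2 Foxp3 UMIs. The listed order moved 34 WT and 58 knockout-labelled cells with Ptcra and no Cd4 into the Foxp3 class. Trdc, a gamma-delta T cell gene, stood at 12.5 CPM in the WT and 29.5 CPM in the knockout-labelled CD25+ Foxp3 class and Ptcra at 6.25 and 10.7 CPM; with both required at 0 the ratio was 0.688. Foxp3 itself was 617 and 568 CPM in this class. Ikzf4 in the CD25− Foxp3 class ranged from 0.5 to 1.89 over the alternatives. In the same class the Ikzf2 ratio was 1.03 (0.773 to 1.37), and it ranged from 0.739 to 1.6.

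In the signalled class Ikzf2 was 1.25-fold higher (1.11 to 1.41) for the knockout label in the CD25− gate and 0.949-fold (0.908 to 0.993) in the CD25+ gate. With the class cut at 4 or more response UMIs the CD25− ratio was 1.30, and with cells weighted equally it was 1.12, its lowest value over the 14 alternatives. Among CD25− cells that also had a Cd4 or Trac UMI (263 knockout-labelled and 277 WT cells, ratio 1.37) it was 1.52 (1.29 to 1.79; 178 and 148 cells) with 4 or more response UMIs and 0.877 (0.680 to 1.13; 85 and 129 cells) with 2 to 3. The cells of the higher bin had medians of 7460.5 and 5856.5 UMIs. The CD25+ ratio rose above 1 when cycling cells were left out (1.05), when cells were weighted equally (1.06), with Ptcra and Trdc at 0 (1.06) and with thinned cells (1.10), so its direction rests on the choice of cells. In the pre-TCR class, with 5386 and 3698 UMIs, Ikzf2 differed by a ratio of 1.04 (0.995 to 1.08).

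Ikzf4 was lower for the knockout label in each of the 4 CD25+ classes. The ratios were 0.802 (0.661 to 0.969) in the Foxp3, 0.561 (0.430 to 0.727) in the signalled, 0.707 (0.502 to 0.986) in the other and 0.625 (0.566 to 0.691) in the pre-TCR class, and all 4 stayed below 1 in every one of the 14 alternatives. In the signalled class the levels were 40.6 CPM from 162 UMIs and 22.8 CPM from 94 UMIs, and in the pre-TCR class 24.3 CPM from 851 UMIs and 15.2 CPM from 747 UMIs. The ratio no longer passed the fold with thinned cells in either class (0.688 and 0.786), nor in the signalled class with 4 or more response UMIs (0.678) or equally weighted cells (0.675). Both cycling (0.688) and non-cycling (0.659) pre-TCR cells showed it. In the Foxp3 class the ratio was 0.668 (0.467 to 0.944) with 1 Foxp3 UMI and 0.670 (0.396 to 1.09) with 2. With 3 or more Foxp3 UMIs it was 0.956 (0.732 to 1.24). With 0, 1 and 2 or more response UMIs it was 0.779, 0.832 and 0.840 in that class, and each interval included 1. In the other class the ratio was 1.03 (0.623 to 1.67) in mature, 0.891 (0.340 to 2.21) in immature and 0.574 (0.317 to 1.02) in remaining cells, and mature cells, where Ikzf4 is higher, were 96 of 388 knockout-labelled and 216 of 573 WT cells. Trdc stood at 22.6 CPM in the WT and 58.8 CPM in the knockout-labelled CD25+ signalled class, and the gamma-delta markers summed to 119 and 166 CPM there and to 1243 and 655 CPM in the pre-TCR class. With Ptcra and Trdc at 0 the signalled ratio of Ikzf4 was 0.654. In the CD25− gate the ratios were 0.80 in the Foxp3, 1.06 in the signalled and 0.896 in the other class, and all of these intervals included 1.

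**Figure D5:**
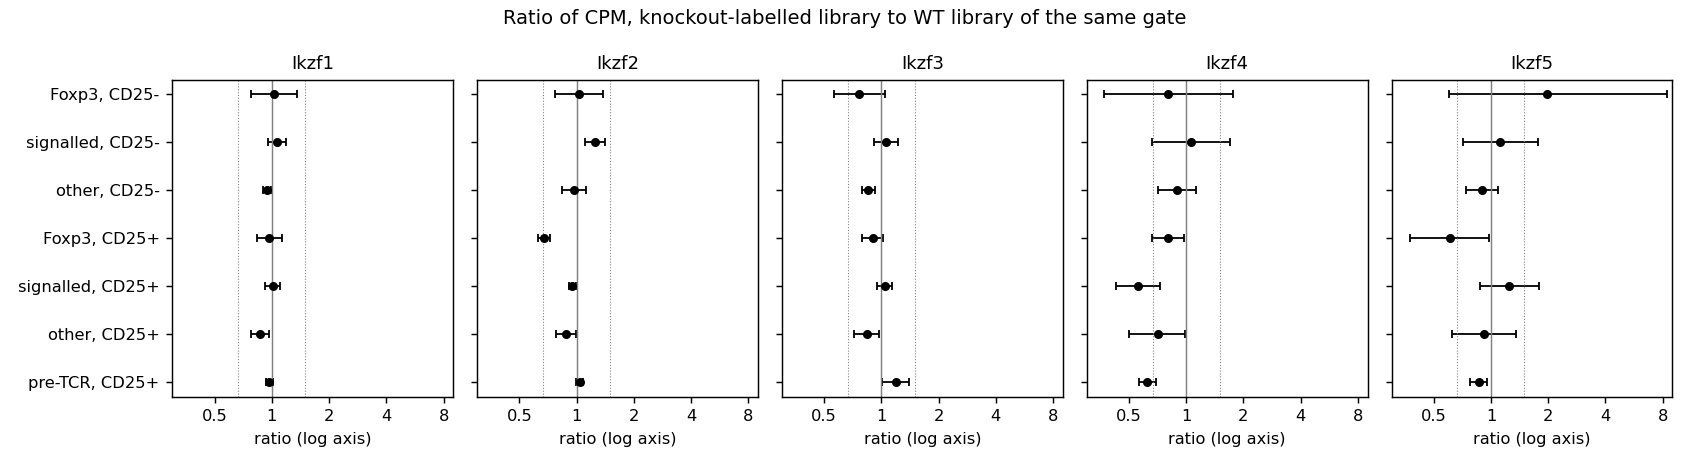
Ratio of CPM of the knockout-labelled to the WT library of the same gate (log axis) for each member and class, with exact conditional 95% intervals; dotted lines mark 1.5-fold either way. The 4 CD25+ points of Ikzf4 lie below 1, Ikzf2 lies at 0.674 in the CD25+ Foxp3 class and at 1.25 in the CD25− signalled class, and Ikzf1 lies close to 1 throughout.

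Corepressors and other genes tied to the family were read in the same comparisons from lists set by name. Of 13 NuRD subunit genes, all 13 were tested, and between the knockout-labelled and WT libraries 1 was lower and 0 higher in the CD25+ Foxp3, signalled and pre-TCR classes, where it was Mta1 each time (2.54-, 2.44- and 1.88-fold lower), which encodes a NuRD scaffold subunit. Of all genes 3.65%, 3.09% and 1.74% were lower in these comparisons, so 1 of 13 is close to the background. The list's median log2 ratio was -0.08, -0.05 and -0.10 in these classes, against -0.03, -0.02 and -0.05 over all genes tested. Chd3, a NuRD remodelling subunit, was 3.01-fold (WT) and 3.32-fold higher in the CD25+ Foxp3 class than in the signalled class, at 603 against 201 CPM and 445 against 134 CPM. Between those classes 32.4% (WT) and 39.9% of all genes passed the fold either way. Chd3, named as an extreme of its list, was 2.33- and 1.96-fold lower in the pre-TCR class than in the other class. Of all genes 13.3% and 9.24% were lower in that comparison. Of the CtBP and Sin3 genes 0 of 6 or 7 tested passed the fold in those 3 knockout-to-WT comparisons. In the CD25+ other class 1 of 7 was higher, Sap30 (1.88-fold), a Sin3-associated protein.

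The cereblon ligase, the complex through which thalidomide-type drugs lead to degradation of Ikaros and Aiolos in human cells, was read from 5 genes. Of these 5 (Crbn, Ddb1, Cul4a, Cul4b and Rbx1) 0 passed the fold between knockout-labelled and WT libraries in 6 of 7 classes, and in the CD25+ other class Cul4a was 1.57-fold lower. With 3.09% to 37.8% of all genes past the fold in these comparisons, such counts of 5 genes say little. Of 7 Notch target genes tested in the pre-TCR to other comparison, 1 is Ptcra, which the class rule fixes, and the remaining 6 were higher in both libraries, where 29.6% (WT) and 17.1% of all genes were past the fold. Hes1 was 5.93-fold higher for WT, at 162 against 27.3 CPM. Ikzf1 was 1.92-fold lower (1.72-fold for the knockout label) in this comparison, where 13.3% and 9.24% of all genes were lower. A link between Ikzf1 and the Notch target genes was not tested. Notch targets between the knockout-labelled and WT libraries were past the fold for 5 of 7 genes in the CD25+ other class, all higher, and for 0 of 7 in the pre-TCR class. Of all genes 9.62% and 4.04% passed it either way. The list holds Ptcra and also Il2ra, which encodes the CD25 of the sort. In the CD25+ other class Ptcra was found in 33.5% of knockout-labelled and 16.9% of WT cells, and Il2ra in 47.7% and 28.6%. The part of such cells in the count of 5 was not tested. Of 9 genes with published Ikaros control in thymocytes, 6 were tested in the pre-TCR class and 0 passed the fold between the libraries, with Dntt furthest from 1 (1.38-fold lower for the knockout label).

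The genes whose level over the 14 groups was most like that of each member were taken from 7751 genes by Pearson's r of log2(CPM + 5). The groups share libraries, depth and gate, so r is only a description. With a pseudocount of 1 or 20 in place of 5, at least 1 of the 3 names changed for every member: Bcl3 led for Ikzf3 (0.983, pseudocount 1) and Swap70 was the third for Ikzf2 (0.92, pseudocount 20). For Ikzf2 they were Colq (r = 0.97), Rgs16 (0.94) and Dusp4 (0.94), the latter pair encoding a regulator of G protein signalling and a MAP kinase phosphatase. For Ikzf3 they were Map4 (0.98), the death receptor gene Fas (0.97) and Tpm4 (0.97), and for Ikzf1 the chromatin remodeller gene Chd7 (0.98), Actr2 (0.97) and Atp2a3 (0.96). For Ikzf4 they were Map1lc3b (0.94), Inpp5f (0.92) and Hopx (0.92), and for Ikzf5 Pdxdc1 (0.91), Fez2 (0.87) and Iqce (0.87). Between members r was 0.70 for Ikzf1 with Ikzf3, 0.63 for Ikzf2 with Ikzf4, 0.53 for Ikzf2 with Ikzf3 and -0.06 for Ikzf1 with Ikzf2.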

How the data were processed

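Deposited UMI counts per gene and cell of 4 libraries (10x Next GEM 5′ kit v2, per the labels' protocols) were used as the authors deposited them. The submitters' processing notes name Cell Ranger 6.2.1 and mm10, while the file headers name Cell Ranger 6.1.2. Cells with at least 500 genes and under 10% mitochondrial UMIs were kept, and the highest-scoring doublets, 0.8% per 1000 barcodes, were removed with scanpy 1.11.5. Each class was summed per library (python 3.11.15, numpy 2.4.6, scipy 1.17.1), with 1 library per group and therefore no test. Ratios past the fold had at least 1.5-fold and 20 CPM in either group. The members, classes and lists were chosen with earlier results of these data known. Named genes were the 5 members, the 3 genes most like each (of named genes that are neither ribosomal, mitochondrial, sex-linked nor receptor segments) and the extremes of each list. Scripts were tested on simulated data. Positions are from GENCODE M21, which held 32158 of 32285 gene IDs.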

Additional observations from a re-analysis of the deposited data

Results flagged for a closer look

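The Ikzf2 ratio of the knockout-labelled to the WT library in the signalled class lay on opposite sides of 1 in the 2 gates, at 1.25 (1.11 to 1.41) in CD25− cells and 0.949 (0.908 to 0.993) in CD25+ cells. The ratio of the Foxp3 to the signalled class in WT libraries did so too, at 1.42 (1.11 to 1.80) in the CD25− and 0.828 (0.787 to 0.871) in the CD25+ gate. Over 14 alternatives the first ratio ranged from 1.12 (cells weighted equally) to 1.44 (thinned cells) in the CD25− gate. In the CD25+ gate it ranged from 0.895 to 1.10. With cells weighted equally it was above 1 in both gates, so the contrast between gates depends on the choice of cells and weights. Each gate has 1 library per genotype label, so the difference between gates was not tested in either case. The CD25− Foxp3 value includes 6 cells with 2 or more receptor response UMIs that hold 47 of its 82 Ikzf2 UMIs.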

How the results depend on the processing

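Of 1886 ratios recomputed for 135 comparisons of the family under 14 alternatives, 1669 stayed within the counting interval, 212 fell outside it and 5 past the fold changed direction. The last were Ikzf5 between knockout-labelled and WT libraries in the Foxp3 class with thinned cells (0.5 for CD25−, 1.25 for CD25+) and, with a minimum of 2 Foxp3 UMIs, Ikzf5 between the knockout-labelled CD25− Foxp3 and signalled classes (0.558), and Ikzf4 (0.942) and Ikzf5 (1.32) between gates in the knockout-labelled Foxp3 class. For Ikzf2 between knockout-labelled and WT libraries, the CD25+ signalled ratio was 0.895 with stricter cells, 0.995 with Cd4 or Trac required, 1.05 without cycling cells, 1.06 with cells weighted equally or Ptcra and Trdc at 0, and 1.10 thinned. Thinning also gave 1.44 in the CD25− signalled and 0.965 in the pre-TCR class, and the listed order 0.584 in the CD25+ Foxp3 class. The CD25+ Foxp3 to other ratio of Ikzf2 (WT, then knockout label) was 3.85 and 2.88 with doublets kept, 4.81 and 3.69 with stricter cells, 2.82 and 2.35 with equal weights, 1.67 and 1.08 thinned and 3.41 and 2.70 without cycling cells; for the knockout label it was 2.68 in the listed order and 2.64 with Ptcra and Trdc at 0. The signalled to other ratio was, in the CD25+ WT library, 5.80 with stricter cells, 3.93 with equal weights, 2.72 thinned, 5.66 from 4 response UMIs and 4.38 without cycling cells; in the CD25+ knockout-labelled one 2.88 thinned and 6.34 from 4 response UMIs; in the CD25− knockout-labelled one 6.61 with all barcodes, 5.43 with equal weights and 6.16 thinned; and in the CD25− WT one 5.36 with Cd4 or Trac required. The pre-TCR to other ratio of Ikzf3 was 0.0655 and 0.0855 with doublets kept, 0.0347 and 0.0518 with equal weights, 0.0259 and 0.0205 thinned, 0.0422 and 0.0428 from 3 Ptcra UMIs and 0.0337 and 0.0460 without cycling cells, and 0.0475 for the knockout label with Ptcra and Trdc at 0.

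Counts of genes past the fold between knockout-labelled and WT libraries (CD25− Foxp3, signalled and other, then CD25+ Foxp3, signalled, other and pre-TCR) were 2727, 464, 210, 496, 429, 688 and 286. They were 1080, 122, 83, 126, 154, 309 and 125 at 50 CPM, and 1270, 1179, 1248, 1325, 1468, 1774 and 1953 with a minimum of 20 UMIs in place of a CPM minimum. Thinned cells gave 6031, 3122, 658, 1910, 1579 and 1847 for all but the last. Equal weights gave 755 and 409 in the CD25− signalled and other classes, 2 Foxp3 UMIs gave 4460 in the CD25− Foxp3 class, and 4 response UMIs gave 805 in the CD25− signalled class.

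No paired analysis was possible because each group is 1 library, and for the same reason no replicate could be left out. The alternatives with Ptcra and Trdc at 0 and without shared barcodes were chosen after seeing the data. The cause of these moves was not tested, except that thinning and class rules change which cells are compared. The CD25− Foxp3 class held only 51 and 59 cells, which limits its values.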
